A study of Mus musculus with 4 samples.

Results

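The genes described here are the Toll-like receptors (TLRs), measured on arrays in cells labelled as peritoneal macrophages, across genotype and time after lipopolysaccharide (LPS). The 10 members were Tlr1 to Tlr9 and Tlr13, found by matching the accession of each probe to the RefSeq gene table, which gave 16 probes of 56605 on the array and 10 genes of the 22911 that could be named. The 4 groups had 1 array each and were LysM-St18flox cells after 3 h of LPS, LysM-St18flox cells at 0 h, wild-type cells after 3 h of LPS and wild-type cells at 0 h. The genotype's name points to a loxP-flanked St18 allele and to LysM, the lysozyme promoter, which is active in macrophages and neutrophils. The sources used here do not say whether the wild-type mice carried a recombinase or a loxP allele, nor the dose of LPS or the age of the mice. All mice had received 4% thioglycollate, which recruits leukocytes to the peritoneum, and the lavage was collected 3 days later. The titles of the samples read PEC, usually short for peritoneal exudate cells, which are a mixture of cell types.

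Toll-like receptors are transmembrane proteins that recognise microbial molecules through leucine-rich repeats and signal through a cytosolic TIR domain. TLR1, TLR2, TLR4, TLR5 and TLR6 act mainly at the cell surface, while TLR3, TLR7, TLR8, TLR9 and TLR13 sense nucleic acids in endosomes. In macrophages TLR4, with its partner MD-2, is the receptor for LPS itself, and it signals through the adaptors MyD88 and TRIF.

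Values are given as normalized log2 signals, meaning the log2 processed signal of a probe minus the 75th percentile of its array, or as differences between them. A gene was represented by the brightest of its probes, and a difference was counted when it was at least 2-fold, or 1 on the log2 scale. With 1 array in each group no difference has a replicate check and none was tested. Repeated spots of one probe gave a standard deviation of 0.05 (log2) for the difference of 2 spots on 2 arrays, which covers spot error and leaves out mice, cultures and labelling. The number of arrays limits the precision of every value. Levels of different probes were compared only to choose the brightest probe of a gene or the markers to name, since probes differ in how strongly they bind. They were added together only in the sums of marker signals. In those sums bright probes weigh most, and probes not well above background were included.

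Between 52.2% and 55.6% of the 59305 non-control spots of an array were well above background, and no spot was saturated. All 10 listed macrophage markers were well above background on all 4 arrays. One of the St18 probes was well above background on the wild-type arrays only, and by it the St18 signal of LysM-St18flox cells was lower by bounds of 8.48-fold or more at 3 h and 7.07-fold or more at 0 h. The other was not well above background anywhere, and no source used here tells whether either probe falls in the altered part of the gene. Markers of other cell types differed between the genotypes. The signals of 12 B cell genes, each relative to the 75th percentile of its array, summed to 21.1 at 3 h and 26.3 at 0 h in LysM-St18flox cells, against 5.11 at 3 h and 6.80 at 0 h in wild-type cells. Those of 11 mesothelial and fibroblast genes summed to 4.52 at 3 h and 5.76 at 0 h in LysM-St18flox cells, against 12.8 at 3 h and 11.9 at 0 h in wild-type cells. The 10 macrophage genes summed to 599 at 3 h and 588 at 0 h in LysM-St18flox cells, against 631 at 3 h and 647 at 0 h in wild-type cells. In such samples, fewer cells of a type and less RNA per cell cannot be told apart.

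**Figure D1:**
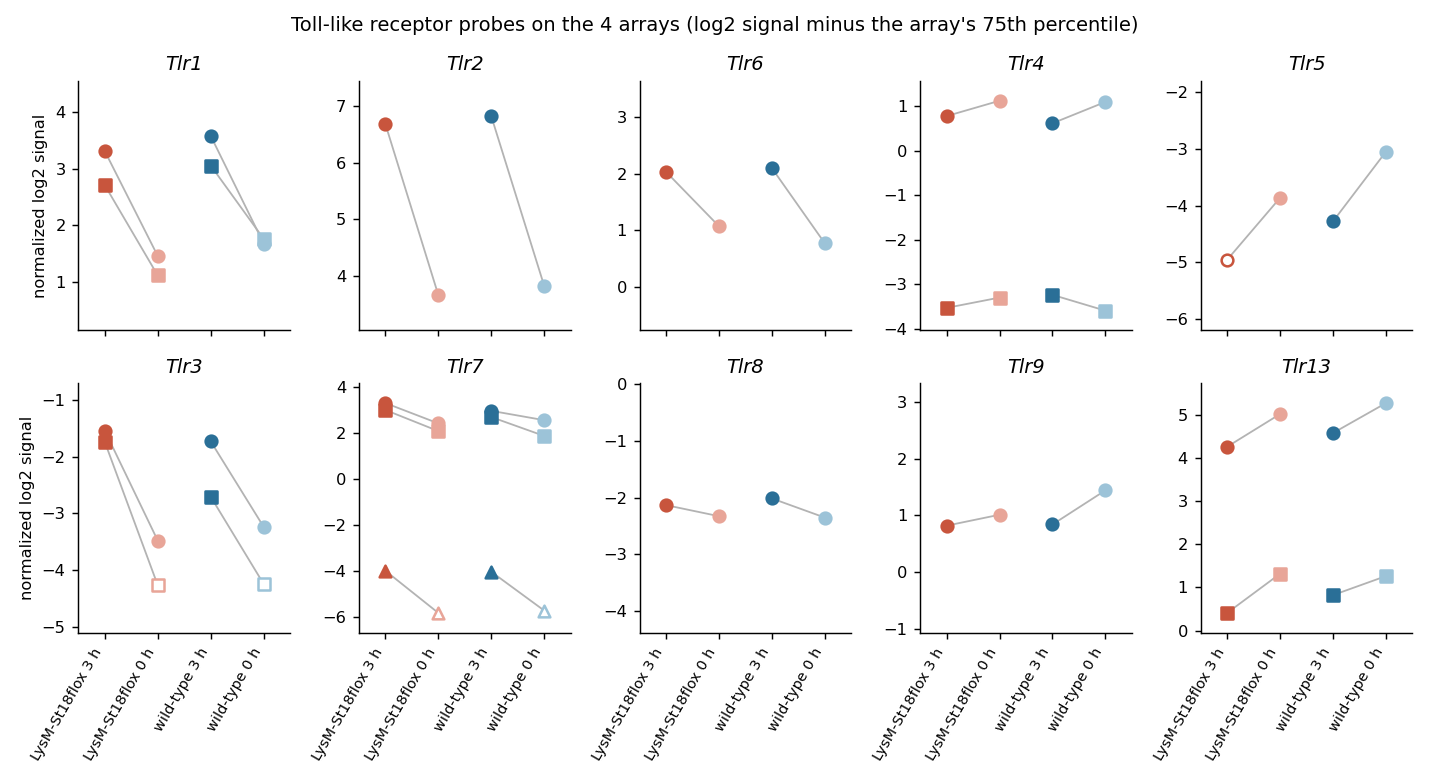
Normalized log2 signal (log2 signal minus the array's 75th percentile) of every Toll-like receptor probe on each of the 4 arrays, in panels of unequal vertical axes. Circles are the brightest probe of a gene, squares and triangles its other probes, and open symbols were not well above background; lines join the arrays of one genotype. Tlr2 stands at 6.68 and 6.82 on the 3 h arrays and at 3.66 and 3.82 on the 0 h arrays.

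The first question was how the receptor genes differed after 3 h of LPS. Tlr2, Tlr1 and Tlr3 were at least 2-fold higher at 3 h in both genotypes (Tlr3 in wild-type cells not with normexp background correction), and Tlr6 was in wild-type cells and close to 2-fold in LysM-St18flox cells. Tlr7 and Tlr8 were higher by less than 2-fold. Tlr4, the receptor for the stimulus, was lower by less than 2-fold, as were Tlr13 (past 2-fold under 2 alternatives in LysM-St18flox cells) and Tlr9 (with the sign changed in LysM-St18flox cells when arrays were centred on their medians), and Tlr5 was lower. In LysM-St18flox cells 3 of 9 measured members were at least 2-fold higher and 0 lower, where 8.12% of 12976 measured genes were higher and 8.97% lower (17.1% in all). In wild-type cells 4 of 10 were higher and 1 lower, where 9.04% of 12588 measured genes were higher and 11.6% lower (20.7% in all). The median difference of the measured members was 0.88 in LysM-St18flox cells, against -0.09 over all measured genes, and 0.37 in wild-type cells, against -0.11 over all measured genes.

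Tlr2 encodes the shared subunit of the lipoprotein receptors, which pairs with TLR1 or TLR6. Its probe read 6.68 at 3 h and 3.66 at 0 h in LysM-St18flox cells, and 6.82 at 3 h and 3.82 at 0 h in wild-type cells. Tlr2 was thus 8.09-fold higher after LPS in LysM-St18flox cells (log2 difference 3.02) and 7.98-fold higher in wild-type cells (3.00). These were the largest differences of the family in either genotype, and they exceeded those of 98.7% of measured genes in LysM-St18flox cells and 98.6% in wild-type cells.

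Tlr1 encodes the TLR2 partner for triacylated lipopeptides. Its brighter probe read 3.31 at 3 h and 1.46 at 0 h in LysM-St18flox cells, and 3.58 at 3 h and 1.68 at 0 h in wild-type cells. The corresponding differences were 1.85 in LysM-St18flox cells (3.61-fold) and 1.90 in wild-type cells (3.73-fold). Its second probe, designed to another RefSeq transcript of the gene, gave 1.59 in LysM-St18flox cells and 1.29 in wild-type cells, so that both probes were past 2-fold in both genotypes.

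Tlr6 encodes the TLR2 partner for diacylated lipopeptides. Its probe read 2.03 at 3 h and 1.07 at 0 h in LysM-St18flox cells, and 2.10 at 3 h and 0.77 at 0 h in wild-type cells. Tlr6 was 1.95-fold higher after LPS in LysM-St18flox cells (0.96) and 2.51-fold higher in wild-type cells (1.33). The 3 h arrays were nearly level with each other, and the 0 h arrays were 0.30 apart. Tlr1 and Tlr6 are close relatives and lie next to each other on chromosome 5, and whether their probes bind each other's transcripts was not tested.

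Tlr3 encodes the receptor for double-stranded RNA, which signals through TRIF. The brighter of its probes was dim at 0 h and read -1.54 at 3 h and -3.48 at 0 h in LysM-St18flox cells, and -1.73 at 3 h and -3.24 at 0 h in wild-type cells. It was 3.84-fold higher after LPS in LysM-St18flox cells (1.94) and 2.84-fold higher in wild-type cells (1.51). With normexp background correction the differences were 1.34 in LysM-St18flox cells and 0.87 in wild-type cells, which is under 2-fold. The second probe was well above background on the 3 h arrays only. The bound on its LPS response was 5.25-fold or more in LysM-St18flox cells and 2.71-fold or more in wild-type cells, each against the higher of its own value and the lowest signal well above background on the 0 h array.

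Tlr4 encodes the LPS receptor itself. Its brighter probe read 0.78 at 3 h and 1.12 at 0 h in LysM-St18flox cells, and 0.62 at 3 h and 1.09 at 0 h in wild-type cells. Tlr4 was 1.27-fold lower after LPS in LysM-St18flox cells (-0.34) and 1.39-fold lower in wild-type cells (-0.48). Its dim second probe gave -0.23 in LysM-St18flox cells and 0.35 in wild-type cells, the opposite sign to the brighter probe in wild-type cells. With both probes averaged the difference was -0.29 in LysM-St18flox cells and -0.06 in wild-type cells, where the median of all measured genes was -0.08, so the wild-type value was close to that of all genes.

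Tlr5 encodes the flagellin receptor, and its only probe was dim. It read -4.95 at 3 h, which was not well above background, and -3.86 at 0 h in LysM-St18flox cells, and -4.27 at 3 h and -3.04 at 0 h in wild-type cells. The signal after LPS was lower by a bound of 1.84-fold or more in LysM-St18flox cells, where the unfiltered difference was -1.09, and 2.35-fold lower in wild-type cells (-1.23). With normexp background correction the wild-type difference was -0.49.

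Among the endosomal receptors, Tlr7 encodes a sensor of single-stranded RNA. Its brightest probe read 3.31 at 3 h and 2.43 at 0 h in LysM-St18flox cells, and 2.98 at 3 h and 2.57 at 0 h in wild-type cells. Tlr7 was 1.85-fold higher after LPS in LysM-St18flox cells (0.88) and 1.33-fold higher in wild-type cells (0.41), while the second probe gave 0.92 and 0.82 in the same order of genotypes. The third Tlr7 probe, annotated to another transcript, was well above background only on the 3 h arrays and gave bounds of 1.12-fold or more in LysM-St18flox cells and 1.09-fold or more in wild-type cells, both higher.

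Tlr8, the neighbour of Tlr7 on the X chromosome, is known as a sensor of single-stranded RNA from work in human cells. Its dim probe read -2.13 at 3 h and -2.32 at 0 h in LysM-St18flox cells, and -2.01 at 3 h and -2.35 at 0 h in wild-type cells, differences of 0.20 in LysM-St18flox cells and 0.34 in wild-type cells. Tlr9 encodes the receptor for unmethylated CpG DNA. Its probe read 0.82 at 3 h and 1.01 at 0 h in LysM-St18flox cells, and 0.84 at 3 h and 1.44 at 0 h in wild-type cells. The Tlr9 differences were -0.19 in LysM-St18flox cells, which was 0.04 when arrays were centred on their medians, and -0.60 in wild-type cells.

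Tlr13 encodes a mouse receptor for bacterial ribosomal RNA. Its brighter probe read 4.27 at 3 h and 5.03 at 0 h in LysM-St18flox cells, and 4.59 at 3 h and 5.28 at 0 h in wild-type cells. Tlr13 was 1.69-fold lower after LPS in LysM-St18flox cells (-0.76) and 1.62-fold lower in wild-type cells (-0.70). In LysM-St18flox cells it passed 2-fold with quantile normalization (-1.07) and in the authors' deposited table (-1.06). The second probe was lower too, at -0.91 in LysM-St18flox cells and -0.44 in wild-type cells. Tlr11 and Tlr12, the remaining mouse receptor genes and sensors of a protozoan profilin, had 1 probe each, and neither was well above background on an array.

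By their brightest probes, 6 of the 9 members measured on all 4 arrays had both 3 h arrays above both 0 h arrays, and the other 3 (Tlr4, Tlr9 and Tlr13) had both 3 h arrays below both 0 h arrays. Such a separation by time, in either direction, was found for 64.9% of the 12343 genes measured on all 4 arrays (27% higher and 37.9% lower). When arrays were centred on their medians the Tlr9 arrays overlapped.

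**Figure D2:**
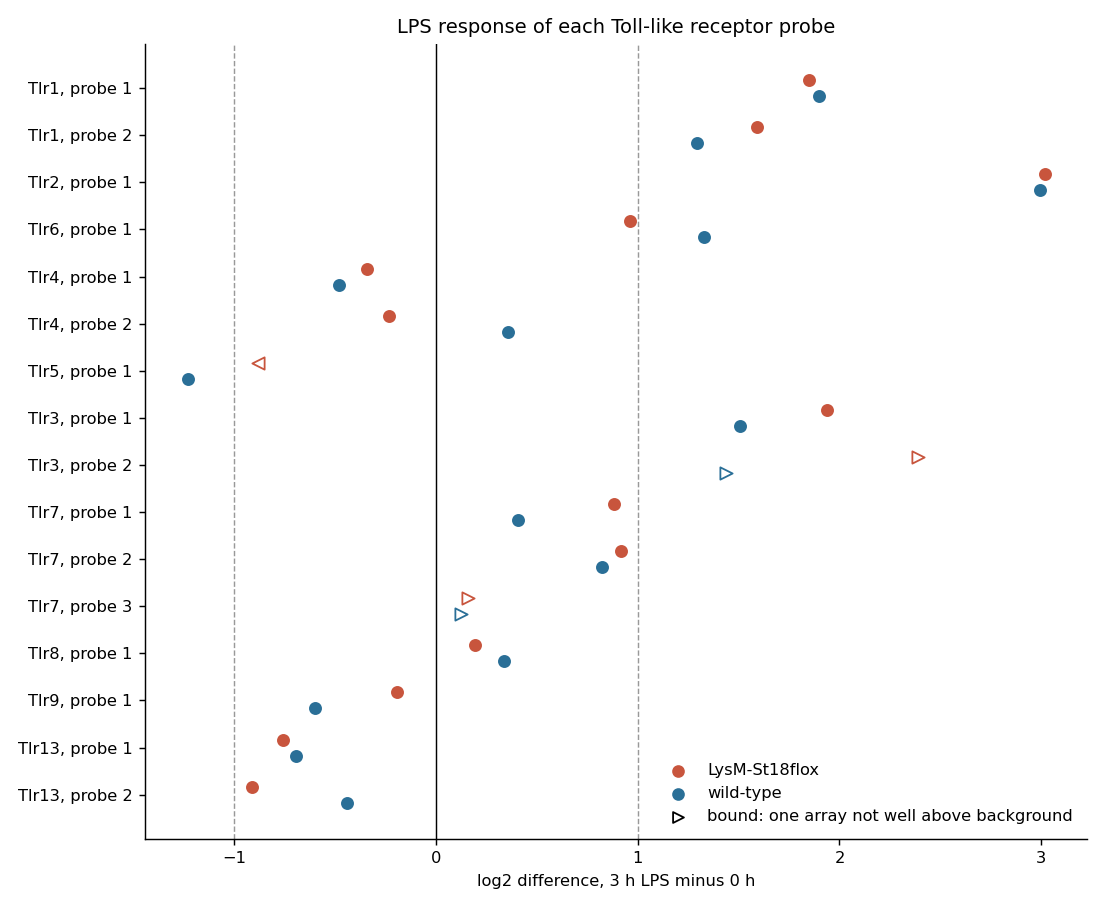
LPS response (log2 difference, 3 h minus 0 h) of each Toll-like receptor probe, in LysM-St18flox and wild-type cells. Filled points were measured on both arrays, open triangles are bounds where one array was not well above background, and dashed lines mark 2-fold; Tlr2 lies near 3 in both genotypes, and the second Tlr4 probe lies at -0.23 in LysM-St18flox cells and 0.35 in wild-type cells.

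Promoter sequences are given for the members with the largest higher differences after LPS (Tlr2, Tlr3, Tlr6 and Tlr1) and, for contrast, for Tlr9 and Tlr13, which were lower. RefSeq (GRCm38.p6) gave windows in front of annotated transcript starts for 8 of the 10 members (not Tlr4 and Tlr7), 10 windows in all, of which the 250 bases before the start were read. The start is not the outermost one of every gene. The windows shown are chr3:83841609-83841858 (Tlr2, minus strand), chr8:45410381-45410630 (Tlr3, minus strand), chr5:64959167-64959416 (Tlr6, minus strand), chr5:64933559-64933808 (Tlr1, minus strand), chr9:106222348-106222597 (Tlr9, plus strand) and chrX:106143025-106143274 (Tlr13, plus strand). Capitals mark matches on either strand to 4 motifs, which were the 10-letter kB motif of NF-kB, the interferon-stimulated response element (ISRE, as GAAA, any 2 bases and GAAA), the AP-1 motif TGANTCA and the PU.1 core GAGGAA.
Tlr2: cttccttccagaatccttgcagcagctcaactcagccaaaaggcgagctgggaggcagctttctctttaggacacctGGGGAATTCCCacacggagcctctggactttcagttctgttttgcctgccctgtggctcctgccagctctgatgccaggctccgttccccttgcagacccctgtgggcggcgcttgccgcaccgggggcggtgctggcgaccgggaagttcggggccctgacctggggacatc
Tlr3: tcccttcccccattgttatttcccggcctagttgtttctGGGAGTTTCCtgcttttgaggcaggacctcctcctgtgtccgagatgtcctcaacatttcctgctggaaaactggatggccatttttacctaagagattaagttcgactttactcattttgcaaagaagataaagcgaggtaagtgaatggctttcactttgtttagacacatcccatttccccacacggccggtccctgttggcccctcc
Tlr6: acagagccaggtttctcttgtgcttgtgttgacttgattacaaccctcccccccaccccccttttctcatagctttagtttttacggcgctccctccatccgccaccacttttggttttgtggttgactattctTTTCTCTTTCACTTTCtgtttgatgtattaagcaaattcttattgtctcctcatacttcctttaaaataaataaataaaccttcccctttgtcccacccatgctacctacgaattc
Tlr1: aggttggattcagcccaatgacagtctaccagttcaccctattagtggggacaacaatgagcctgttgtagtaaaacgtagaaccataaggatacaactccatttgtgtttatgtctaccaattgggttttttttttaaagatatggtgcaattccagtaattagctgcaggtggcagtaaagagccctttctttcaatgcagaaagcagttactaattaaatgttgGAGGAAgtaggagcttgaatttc
Tlr9: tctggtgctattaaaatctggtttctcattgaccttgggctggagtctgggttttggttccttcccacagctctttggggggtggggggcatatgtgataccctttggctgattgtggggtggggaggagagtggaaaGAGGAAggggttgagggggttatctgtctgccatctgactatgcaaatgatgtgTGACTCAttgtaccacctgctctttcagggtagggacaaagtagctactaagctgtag
Tlr13: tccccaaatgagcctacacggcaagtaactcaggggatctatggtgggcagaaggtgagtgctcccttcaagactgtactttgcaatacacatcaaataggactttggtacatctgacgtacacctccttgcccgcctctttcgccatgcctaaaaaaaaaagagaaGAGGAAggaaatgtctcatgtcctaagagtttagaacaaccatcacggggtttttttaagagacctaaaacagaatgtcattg

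The Tlr2 window held 2 overlapping kB matches, 173 to 164 and 172 to 163 bases before the start, and the Tlr3 window 1 kB match 211 to 202 bases before it. No other member window held a kB match, and 3.9% of the 32851 windows in the RefSeq table did. One of the 2 Tlr6 windows, the one shown, held 2 overlapping ISRE matches, 116 to 107 and 110 to 101 bases before the start, which 2.98% of all windows matched at least once. Among member windows the AP-1 motif occurred in Tlr9 only, 58 to 52 bases before the start (6.75% of all windows). The PU.1 core occurred in windows of Tlr1, Tlr8, Tlr9 and Tlr13 (23.3% of all windows). Neither Tlr1 window held a kB or ISRE match, while Tlr1 was 3.61-fold higher after LPS in LysM-St18flox cells and 3.73-fold higher in wild-type cells. These matches are descriptions of the letters in the windows.

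The second question was whether the receptor genes differed between genotypes. No measured member was 2-fold apart by its brightest probe, at 3 h (0 of 9 members, where 3.22% of 13048 genes were, 1.82% higher and 1.4% lower) or at 0 h (0 of 10, where 6.07% of 12679 genes were, 3.04% higher and 3.03% lower). At 3 h the members ran from -0.32 (Tlr13) to 0.34 (Tlr7), with a median of -0.06 against -0.01 over all measured genes. The middle 90% of all measured genes lay between -0.51 and 0.59. At 0 h the members ran from -0.82 (Tlr5) to 0.30 (Tlr6), with a median of -0.19 against -0.03 over all measured genes, whose middle 90% lay between -0.88 and 0.78. Every measured member was inside these ranges at both times.

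Tlr1, Tlr2 and Tlr13 were lower in LysM-St18flox cells at both times under every setting tried. Tlr13 was at -0.32 at 3 h and -0.25 at 0 h, Tlr1 at -0.27 and -0.22, and Tlr2 at -0.14 and -0.16 at the same times. Tlr5, at -0.82 at 0 h, was lower at 3 h by a bound of 1.38-fold or more, because its 3 h signal in LysM-St18flox cells was not well above background. Tlr7 was higher at 3 h (0.34) and near level at 0 h (-0.14, or 0.04 with all probes averaged), and Tlr3 was at 0.19 at 3 h and -0.24 at 0 h. Tlr9 was level at 3 h (-0.02, and above 0 when arrays were centred on their medians) and lower at 0 h (-0.43). Tlr4 differed by 0.16 at 3 h and by 0.03 at 0 h, with -0.07 at 3 h when all probes were averaged and -0.12 at 0 h when arrays were centred on their medians. Tlr8 was at -0.12 at 3 h and 0.02 at 0 h, the value at 0 h being below 0 under several settings.

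Second probes bore on several of these values. For Tlr3 the second probe gave 0.97 at 3 h, where the brighter one gave 0.19. For Tlr4 the second probe gave -0.29 at 3 h and 0.29 at 0 h. For Tlr13 it gave -0.42 at 3 h and 0.05 at 0 h, and for Tlr1 -0.35 at 3 h and -0.65 at 0 h. The second Tlr7 probe gave 0.31 at 3 h and 0.21 at 0 h. The gap between the brightest and second probe was lowest on the wild-type 0 h array for Tlr1 (-0.08, against 0.34 to 0.60 on the other arrays). It was highest there for Tlr7 (0.69, against 0.27 to 0.33), Tlr13 (4.02, against 3.71 to 3.86) and Tlr4 (4.68, against 3.85 to 4.41). That array enters the wild-type LPS response, the genotype difference at 0 h and the difference of the LPS responses.

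The genotype differences stood beside unequal signals of several marker lists of other cell types. Whether the amounts of those cells differed was not tested. Of all measured genes, 1.82% were higher in LysM-St18flox cells by 2-fold or more at 3 h and 3.04% at 0 h, and 1.4% and 3.03% were lower. Of 10 measured B cell markers, 7 were higher in LysM-St18flox cells by 2-fold or more at 3 h and 8 at 0 h, and 0 lower. Their median was 2.06 at 3 h (from -0.56 to 3.12) and 2.13 at 0 h (from -0.26 to 3.65). Cd79b, 1 of those with the most signal, was at 2.28 at 3 h and 2.36 at 0 h. B cells are known to express Tlr7 and Tlr9, and the part of the B cells in the values of those genes was not tested. Of the neutrophil markers, 4 of 10 measured were lower by 2-fold or more at 3 h and 5 of 11 at 0 h, and 1 was higher at 3 h. Their median was -0.42 at 3 h and -0.69 at 0 h. S100a9 was at -2.74 at 3 h and -2.25 at 0 h. Csf3r, with the most signal of them, was at -0.01 and 0.69, and Retnlg at 1.11 and 0.81. The signals of 12 neutrophil genes summed to 175 at 3 h and 164 at 0 h in LysM-St18flox cells. In wild-type cells the sums were 250 at 3 h and 163 at 0 h, so the sums, unlike many of the single markers, were nearly level at 0 h. Csf3r weighed most in these sums, with a normalized log2 signal at 0 h of 7.02 in LysM-St18flox cells and 6.33 in wild-type cells. S100a9 read 3.39 and 5.64 at 0 h in the same order. Of the other marker lists, mesothelial and fibroblast genes had a median of -1.51 at 3 h and -1.09 at 0 h, erythroid genes 3.28 and 2.96, T and NK cell genes 1.09 and 0.14, mast cell genes 1.51 and 0.98, eosinophil genes 0.79 and 0.99, dendritic cell genes 0.38 and 0.54, and macrophage genes -0.06 and -0.25. Of the 10 macrophage genes, 1 was past 2-fold at 0 h and 0 at 3 h. It was the lysozyme gene Lyz2, at 1.20 at 0 h and -0.23 at 3 h, with a difference of LPS responses of -1.43.

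**Figure D3:**
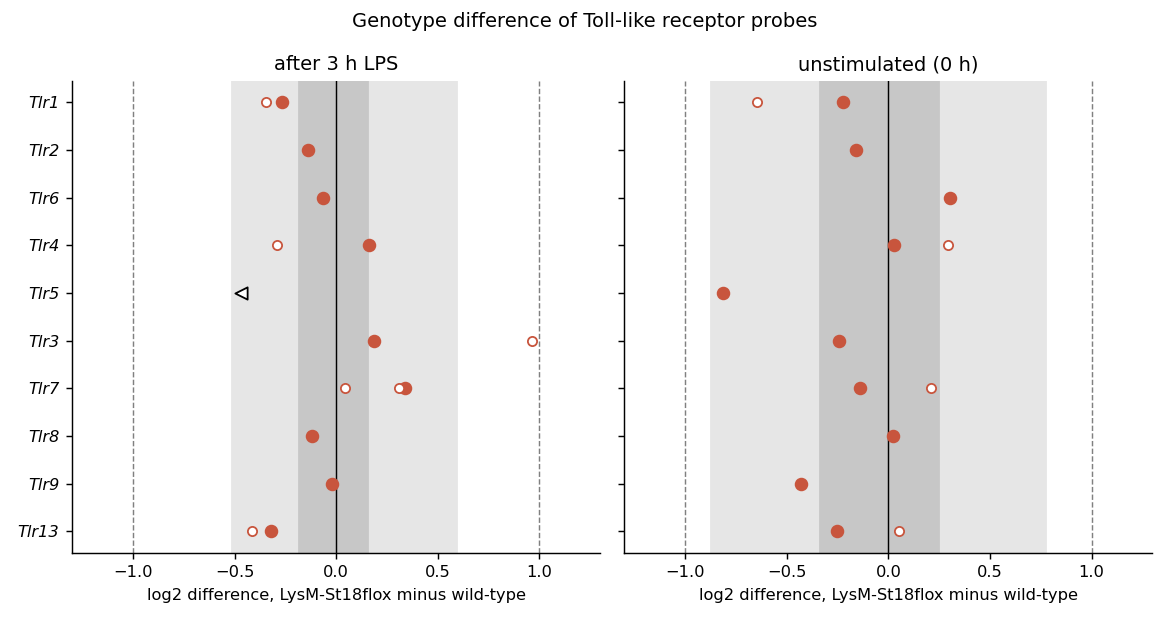
Genotype difference (log2, LysM-St18flox minus wild-type) of Toll-like receptor probes after 3 h of LPS and at 0 h. Filled points are the brightest probe of each gene, small open circles its other probes, the open triangle a bound, dark and light grey bands the middle 50% and 90% of all measured genes, and dashed lines 2-fold; no point reaches 2-fold, and the second Tlr3 probe is nearest to it at 0.97 at 3 h.

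The difference of the LPS responses, LysM-St18flox minus wild-type, asked whether the genotypes responded unequally. None of 9 members was 2-fold apart, where 5.31% of 12343 genes were (2.9% higher and 2.41% lower). By their brightest probes the members ran from -0.37 (Tlr6) to 0.48 (Tlr7), with a median of 0.02 against 0.03 over all measured genes. By the same probes Tlr3 was at 0.43 and Tlr9 at 0.41, and Tlr1, Tlr2 and Tlr13 lay between -0.06 and 0.02. For Tlr7 the second probe gave 0.10, and for Tlr1 0.30, against 0.48 and -0.05 by the brighter probes. For Tlr13 the second probe gave -0.47, and for Tlr4 -0.59, against -0.06 and 0.14 by the brighter probes.

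Other genes of the pathway were read from fixed lists. Accessory proteins bind ligand with the receptors or bring them to their compartments. Of 17 measured accessory genes, 1 was higher by 2-fold or more and 0 lower after LPS in LysM-St18flox cells (median -0.16), and 1 higher and 3 lower in wild-type cells (median -0.35). The higher one was Cd14, the LPS co-receptor, at 1.89 in LysM-St18flox cells and 1.39 in wild-type cells, and its second probe gave 1.82 and 1.75. The lower ones in wild-type cells were Cnpy4 (-1.51), Rnf170 (-1.20) and Cnpy3 (-1.02), which were at -0.42, -0.23 and -0.67 in LysM-St18flox cells. The products of Cnpy3 and Cnpy4 help Toll-like receptors to fold or to reach the surface. The second Rnf170 probe gave -0.39 in wild-type cells.

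Ly96, which encodes MD-2, had probes that opposed each other and were annotated to different RefSeq transcripts. The brighter gave -0.96 in LysM-St18flox cells and -0.67 in wild-type cells, and the other 0.88 and 0.54. Unc93b1, which encodes the chaperone that carries nucleic acid receptors to endosomes, was at 0.11 in LysM-St18flox cells and -0.40 in wild-type cells. The 5 endosomal protease genes, whose products process the ectodomains of endosomal receptors, were all measured and none was 2-fold apart after LPS (from -0.08 to 0.29 in LysM-St18flox cells and from -0.11 to 0.28 in wild-type cells). Of all measured genes, 17.1% were 2-fold apart after LPS in LysM-St18flox cells and 20.7% in wild-type cells. Between genotypes, 0 of 17 accessory genes were at least 2-fold apart at 3 h and 1 at 0 h, where 3.22% and 6.07% of all measured genes were. That gene was Ly86 (1.05), which encodes MD-1, a partner of the receptor-like protein RP105. Cd180, which encodes RP105, was at -0.35 at 0 h, and its second probe gave -0.34.

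Among 21 measured adaptor and kinase genes, 8 were higher by 2-fold or more and 2 lower after LPS in LysM-St18flox cells (median 0.58), and 9 higher and 2 lower in wild-type cells (median 0.63). Rises of at least 2-fold were found for 8.12% of all measured genes in LysM-St18flox cells and 9.04% in wild-type cells. Falls of that size were found for 8.97% and 11.6% of all measured genes in the same order. Myd88, the adaptor shared by most of the receptors, was at 2.44 in LysM-St18flox cells and 1.82 in wild-type cells. Tirap, which links MyD88 to TLR2 and TLR4, was at 1.34 and 1.46 in the same order. Scimp, an adaptor that binds Toll-like receptors, was 4.25-fold and 3.99-fold higher, Ikbke, a kinase gene of the TRIF branch, was at 1.76 and 1.54, and Tab2, whose product joins the kinase TAK1 to TRAF6, was at 1.45 and 1.68. Tab1, which encodes an activator of TAK1, was lower, at -1.74 and -1.62. The other lower gene in LysM-St18flox cells was Ticam2, which encodes the bridging adaptor TRAM, at -1.07 there and -0.48 in wild-type cells.

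Ticam1, which encodes TRIF, was at -0.48 in LysM-St18flox cells and -0.09 in wild-type cells. Of the receptor-proximal kinases, Irak3, which encodes the inhibitory IRAK-M, was at 1.28 in LysM-St18flox cells and 1.55 in wild-type cells, with all 3 probes past 2-fold in both. Irak2 was at 0.58 and 0.31, and Irak1 at -0.26 and -0.34. The dimmest Irak1 probe gave -0.41 in LysM-St18flox cells and 0.34 in wild-type cells, and the remaining one -0.31 and -0.34. Irak4 was at -0.35 in LysM-St18flox cells and -1.74 in wild-type cells, with a signal of 0.94 on the wild-type 0 h array and between -0.80 and -0.28 on the other arrays. Irak4 was also the adaptor or kinase gene 2-fold apart between genotypes at 0 h (-1.21), where the same array enters, and 0 of 21 were at 3 h. Of all measured genes, 6.07% were 2-fold apart at 0 h and 3.22% at 3 h. The difference of LPS responses was past 2-fold for Irak4 (1.39) and, of the accessory genes, for Cnpy4 (1.09), where 5.31% of all measured genes were.

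**Figure D4:**
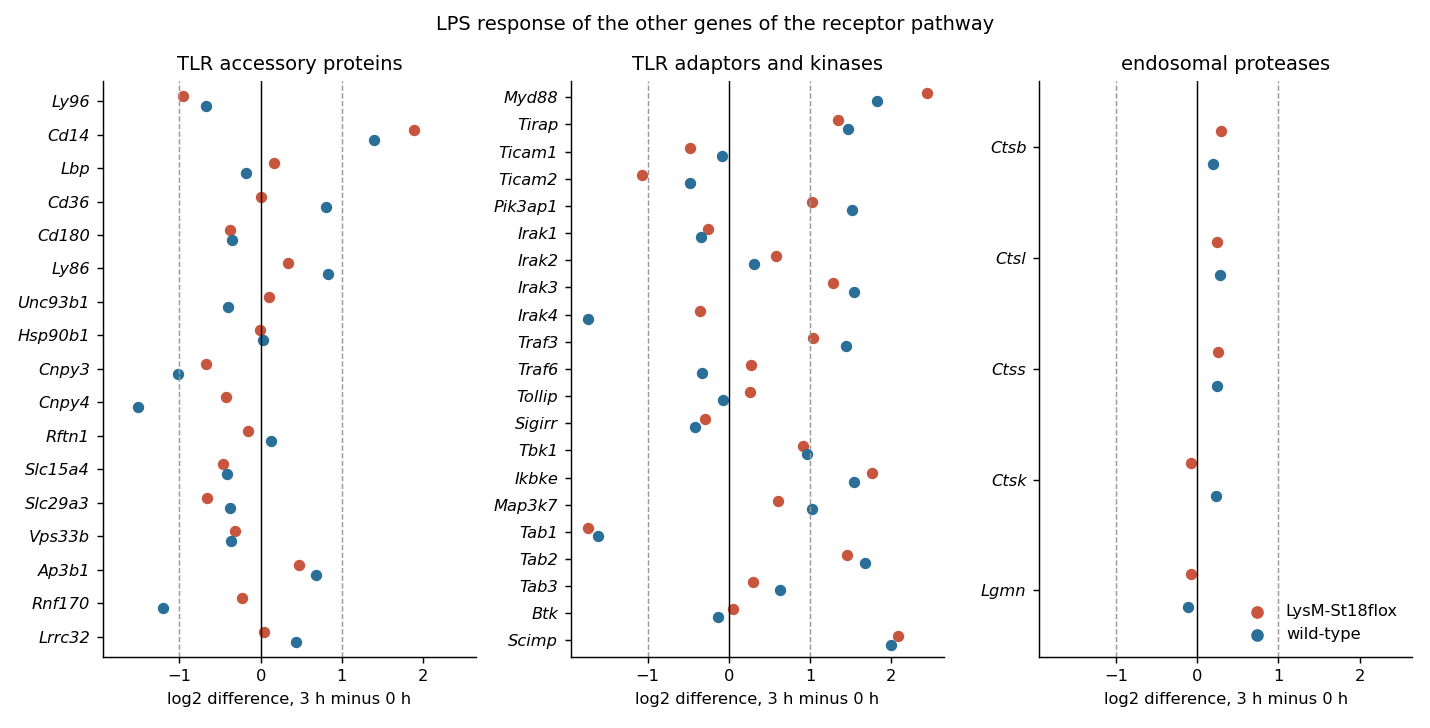
LPS response (log2 difference, 3 h minus 0 h) of the measured accessory, adaptor and kinase, and endosomal protease genes, by brightest probe, in LysM-St18flox and wild-type cells. Dashed lines mark 2-fold; Myd88 lies at 2.44 in LysM-St18flox cells and 1.82 in wild-type cells, and the endosomal proteases lie within 0.3 of 0.

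Likeness of pattern was measured as the root mean square difference of values centred on each gene's own mean, over the 4 arrays and among 11459 named protein-coding genes measured on all of them. Nearest to Tlr2 were Sod2, the mitochondrial superoxide dismutase gene, at 0.03 and the metallothionein gene Mt2 at 0.05. Nearest to Tlr1 were Rbpj at 0.04 and Rffl at 0.07, and nearest to Tlr3 were Pnpt1 and Pigv, both at 0.06. Ddx21 (0.01) and Lsm11 (0.02) were nearest to Tlr6, and Optn (0.03) and Gpd2 (0.04) to Tlr7. For Tlr4 they were Zfp119b (0.01) and Pcyox1 (0.02), and for Tlr13 Prr3 (0.02) and Apba1 (0.03). Tlr8 and Tlr9 had neighbours at 0.007 and 0.01 (Nolc1 and Cct2) and at 0.009 and 0.02 (Glyr1 and Shank2). Within the family, Tlr4 and Tlr9 (0.17) and Tlr1 and Tlr3 (0.18) were the closest pairs, and Tlr2 and Tlr13 (1.87) the most distant. With 4 arrays these likenesses are descriptions.

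Neighbours on the chromosome were read from the order of protein-coding genes in the RefSeq table. Tlr1 and Tlr6 lie side by side between Klf3 and Fam114a1. Klf3 was at 0.80 after LPS in LysM-St18flox cells and 1.01 in wild-type cells, and Fam114a1 at -0.02 and 0.01. Tlr7 and Tlr8, side by side between Prps2 and Tmsb4x, differed from each other after LPS by their brightest probes in LysM-St18flox cells (0.88 and 0.20) and were at 0.41 and 0.34 in wild-type cells. Alas1, next to Tlr9, was at 1.20 in LysM-St18flox cells and 1.69 in wild-type cells, where Tlr9 was below 0, and Twf2, on its other side, was at -0.77 and -0.68.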

How the data were processed

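Gene expression was measured on Agilent 1-colour arrays, 1 for each of 4 groups. Per the file headers, the deposited spot intensity values come from Feature Extraction 11.0.1.1 (Agilent) and are background-subtracted and spatially detrended, with no normalization between arrays; the headers give the genome build as mm9. The deposited value table holds log2 values whose 4 columns have the same distribution (sorted columns differ by at most 0.000362), with 13 of the 16 member probes; its normalization step is not stated.

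Here, spots of a probe were averaged as log2 intensities, without control and outlier spots, and each array's 75th percentile over non-control spots was subtracted. Probes were named by accession through the RefSeq table of GRCm38.p6 (32994 probes matched 1 symbol), used for names and gene order. A gene was measured when its brightest probe was well above background and unsaturated on every array compared. A gene above background on 1 side gave a bound, taking for the dim array its own value or its lowest signal well above background, whichever was higher. The normexp alternative (limma 3.58.1, offset 50) used median spot signals. The counting was tested on simulated data. Named genes were all members, Tlr11, Tlr12, St18, list members past 2-fold (up to 6 a list and comparison), Ly96, Cd14, Unc93b1, Myd88, Ticam1, Irak1 to Irak4, up to 3 markers a cell type and the 2 genes nearest in pattern to each member; chromosomal neighbours were added later. The members and lists were chosen with earlier results of these data known. All 4 arrays lay on 1 slide, so slide could not act as a batch.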

Additional observations from a re-analysis of the deposited data

Results flagged for a closer look

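The second Tlr4 probe had LPS responses of opposite sign in the genotypes, at -0.23 in LysM-St18flox cells and 0.35 in wild-type cells. The difference was not tested, and each value rests on 2 arrays. The probe's normalized signal was between -3.59 and -3.23 on the 4 arrays, close to the lowest signals well above background (-4.74 to -4.13). The brighter Tlr4 probe was below 0 in both genotypes.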

How the results depend on the processing

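No paired analysis was possible because each group had 1 array, and for the same reason no array could be left out. The count of members at least 2-fold apart after LPS in LysM-St18flox cells was 3, and it was 5 (all higher, with Tlr6 and Tlr7 added) when arrays were centred on their medians. In wild-type cells it was 5, and 3 with normexp correction, where Tlr3 was at 0.87 and Tlr5 at -0.49. Under the other alternatives these counts stayed within 1.5 times, though in LysM-St18flox cells 1 member, Tlr13, was lower with quantile normalization (-1.07) and in the authors' deposited table (-1.06), against 0. With no background filter 1 member, Tlr5, was lower in LysM-St18flox cells (-1.09). The counts of 0 for both genotype differences and for the difference of responses were 0 under all 8 alternatives, 1 of which (the 75th percentile over probes) was chosen after seeing the data. Tlr1 and Tlr2 were past 2-fold after LPS in both genotypes under every setting. Relative to the median of all measured genes, 4 members were higher in LysM-St18flox cells, with Tlr6 at 1.05, and 4 higher and 1 lower in wild-type cells. Centring on medians moved the median of all genes after LPS in LysM-St18flox cells to 0.14, against -0.09, with 1379 genes higher and 730 lower, against 1054 and 1164. It moved that of the genotype difference at 0 h to -0.18, against -0.03 (289 higher and 678 lower, against 385 and 384), and that of the difference of responses to 0.19, against 0.03 (587 and 208, against 358 and 297). With normexp the share of genes 2-fold apart between genotypes was 1.79% at 3 h and 3.79% at 0 h, and with no background filter 8.87% and 12.3%. Small genotype differences changed sign under at least 1 setting for Tlr4 and Tlr9 at 3 h and for Tlr4, Tlr7 and Tlr8 at 0 h, as did the differences of responses of Tlr1, Tlr4, Tlr8 and Tlr13. Signals near background limit Tlr3, Tlr5 and the second Tlr4 probe.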
